A study of Mus musculus with 6 samples.

Results

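The genes described here, 8 in number, are tied to extracellular matrix, stromal cells and the acute phase response, and were followed in mouse dendritic cells: Dcn, Thbs1, Sparc, Col1a2, Col3a1, Fn1, Acta2 and Saa3. They are 8 genes beside the 7989 that the annotation used here names on the array. They were listed by name with their levels on these same arrays in view, so their differences between groups are given as descriptions, without a p-value. Of the 8, 5 had at least 1 probe under their symbol in the annotation used here, with 9 probes in all: 1 each for Dcn, Thbs1 and Saa3, 2 for Sparc and 4 for Acta2. All 9 probes passed the filter on dim probes. Most probes in that annotation do, since it covers only probes detected on at least 3 arrays. Col1a2, Col3a1 and Fn1, the chains of fibrillar collagens and fibronectin, had none and were not analysed here.

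Bone marrow of Rag2 knockout mice aged 6 weeks (C57BL/10NAGCSnAi-(KO) Rag2) was cultured for 6 days with 1.5 ng/ml of GM-CSF and 1.5 ng/ml of IL-4, and every group shared that genotype and culture. The first group received lipopolysaccharide (LPS), a bacterial cell wall component sensed by Toll-like receptor 4, at 1 µg/ml for 18 h. In the second, reactive oxygen species (ROS) were made inside the cells by hematoporphyrin, a light-sensitive dye, at 1 µg/ml for 1 h, followed by 3 min of light at a peak of 515 nm and 18 h of culture. The third group was unstimulated, and the labels do not say whether those cells received the dye or the light, or how long they were kept after day 6. Each group had 2 arrays, and nothing states that they came from separate cultures or animals, so every error and p-value reflects the scatter of these arrays alone, possibly only technical scatter.

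Collagens, fibronectin and small proteoglycans such as decorin form the scaffold between cells and are made mainly by fibroblasts and related stromal cells. Matricellular proteins such as thrombospondin 1 and SPARC add little to the scaffold itself but bind it and change how cells attach to it. In myeloid cells, matrix-related genes are also part of the inflammatory response. Mouse Saa3 encodes a serum amyloid A protein that macrophages and other cells outside the liver make during inflammation. Dendritic cell cultures from bone marrow are mixtures in which macrophages, granulocyte precursors and some stromal cells can persist.

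The arrays agreed well within groups, with correlations across probes of 0.988 to 0.994, against 0.874 to 0.939 between groups. Detected probes numbered 10428 and 10485 of 25697 on the LPS arrays, 11251 and 11438 on the ROS arrays and 11267 and 11356 on the unstimulated arrays. The background mean was lower on the LPS arrays (144 and 141 signal units) than on the ROS arrays (148 on each) and the unstimulated arrays (153 and 154). Of 7 dendritic cell markers, Flt3 and Cd209a had no probe in the annotation used here. That annotation covers only probes detected on at least 3 arrays, so counts of detected markers, here and below, partly follow from it. The other 5 markers (Itgax, Cd74, H2-Ab1, Ccr7 and Zbtb46) were above background on every array, except Itgax on the first LPS array. Their summed normalised signal was 43982 to 48860 in LPS, 34626 to 35914 in ROS and 75439 to 86627 in unstimulated cells, and the antigen presentation genes Cd74 and H2-Ab1 fell after both stimuli (limma adjusted p = 0.00216 and 0.00557 in LPS, 0.0148 and 0.000227 in ROS). The ROS call of Cd74 was lost without the first unstimulated or either ROS array. These 2 genes were the brightest of the 5 markers, and the others did not all follow the sum. After ROS Zbtb46 and Ccr7 rose by 0.77 ± 0.12 and 0.94 ± 0.29 on the log2 scale (limma adjusted p = 0.00382 and 0.0435). The Ccr7 call was held in 7 of 14 alternatives. After LPS Zbtb46 differed by -0.76 ± 0.12 (adjusted p = 0.00245) and Ccr7 did not pass, and Itgax passed after neither stimulus. In bulk samples such as these, fewer cells of a type and less RNA per cell cannot be told apart.

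Of the 5 measured members, Dcn, Thbs1, Sparc and Saa3 were higher in LPS cells than in either other group, while Acta2, by its brightest probe, was highest in ROS cells. Thbs1 and Dcn were lower in ROS cells than in unstimulated cells, and Saa3 was higher. By the fit over all kept probes, which called a gene at a Benjamini-Hochberg adjusted p under 0.05, 4 members were higher and 0 lower in LPS than in unstimulated cells, where 53.9% of 7897 genes were called. In LPS against ROS cells 4 were higher and 1 lower (56.0% of genes called), and in ROS against unstimulated cells 2 were higher and 2 lower (40.1% called). All these counts take each gene by its brightest probe. By that probe the 2 arrays of one group did not overlap those of the other for any of the 5 in any comparison. That also held for 78.8% of genes in LPS against unstimulated, 78.5% in LPS against ROS and 73.7% in ROS against unstimulated cells. In that last comparison a dimmer Acta2 probe did overlap, and the dimmer Sparc probe was called lower. As the members were chosen on these arrays, nothing is read from these counts.

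**Figure D1:**
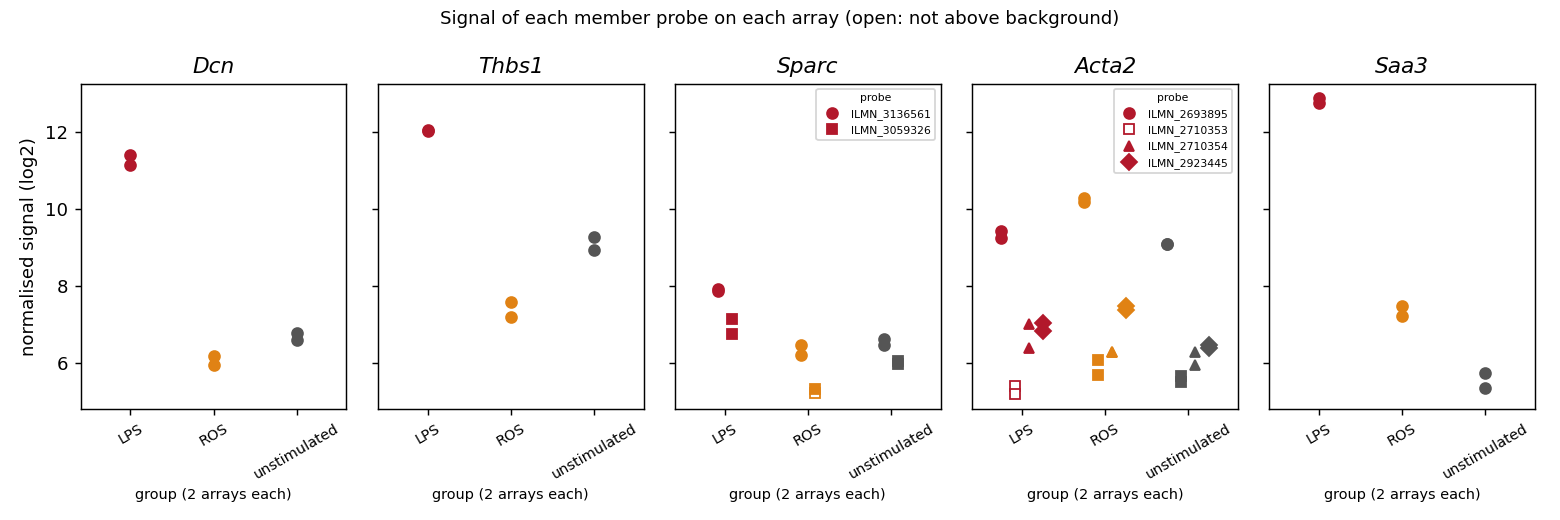
Normalised signal on the log2 scale (y axis) of each probe of the 5 measured members on each array, by group (x axis, 2 arrays each); marker shapes separate probes of 1 gene and open markers are not above background. Saa3 averaged 12.82 in LPS, 7.35 in ROS and 5.54 in unstimulated cells, and the ROS arrays of the brightest Acta2 probe lie above both other groups, which does not hold for all 4 Acta2 probes.

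The small leucine-rich proteoglycan decorin, encoded by Dcn, binds collagen fibrils and can hold growth factors such as TGF-beta. Its probe had raw signals of 1961 and 2287 on the LPS arrays, 199 and 212 on the ROS arrays, and 288 and 257 on the unstimulated arrays. The LPS arrays stood far above the rest, and the ROS arrays lay just below the unstimulated ones. On the normalised log2 scale the level was 11.27 ± 0.18 in LPS, 6.06 ± 0.17 in ROS and 6.69 ± 0.13 in unstimulated cells (SD, n = 2 each). The log2 difference was 4.58 ± 0.15 between LPS and unstimulated cells (SE from the fit, as for all differences below), or 23.9-fold. It was 5.21 ± 0.15 between LPS and ROS cells, and -0.63 ± 0.15 between ROS and unstimulated cells. Of 7897 genes, 34 were as high or higher than Dcn in LPS against unstimulated cells, itself included, and 0.633% differed more in either direction. The ROS difference was small beside that and shrank to -0.25 without background correction and on the authors' normalised values. On the authors' normalised values, which keep the background, the LPS against unstimulated difference was 3.46.

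Thrombospondin 1, the product of Thbs1, is a large matricellular glycoprotein that binds CD36 and CD47 and can activate latent TGF-beta. Raw signals of its probe were 3731 and 3643 on the LPS arrays, 297 and 345 on the ROS arrays, and 976 and 726 on the unstimulated arrays. The 3 groups were thus separate, with LPS on top and ROS at the bottom. Normalised levels were 12.05 ± 0.01 in LPS, 7.38 ± 0.28 in ROS and 9.11 ± 0.25 in unstimulated cells (SD, n = 2 each). The log2 difference was 2.95 ± 0.18 in LPS against unstimulated cells, 4.67 ± 0.18 in LPS against ROS cells and -1.73 ± 0.18 in ROS against unstimulated cells. Thbs1 was the measured member with the largest drop in ROS cells, 3.31-fold, and 4.17% of all genes differed more in that comparison.

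Sparc encodes a collagen-binding matricellular glycoprotein also called osteonectin. Its brighter probe gave raw signals of 297 and 284 on the LPS arrays, 213 and 230 on the ROS arrays, and 257 and 257 on the unstimulated arrays. The second probe gave 203 and 220 on the LPS arrays, 168 and 172 on the ROS arrays, and 222 and 211 on the unstimulated arrays, where 1 of the 2 ROS arrays was not above background. Raw signals of LPS and unstimulated cells were close for both probes, while normalised levels of the brighter probe were 7.89 ± 0.04 in LPS, 6.32 ± 0.19 in ROS and 6.54 ± 0.11 in unstimulated cells (SD, n = 2 each). The log2 difference in LPS against unstimulated cells was 1.35 ± 0.14 for the brighter probe and 0.95 ± 0.16 for the other, and in LPS against ROS cells 1.57 ± 0.14 and 1.68 ± 0.16. With no scaling between arrays these LPS against unstimulated differences were 0.46 and 0.10. In ROS against unstimulated cells the brighter probe gave -0.22 ± 0.14 and the second -0.73 ± 0.16, a bound of at least 1.62-fold lower once the undetected array is raised to the detection limit. For Sparc the order was therefore LPS, unstimulated, ROS on both probes. The step between ROS and unstimulated cells was small on the brighter probe, but on the second it was close in size to the LPS step, and with no scaling it was the larger of these steps.

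Acta2 encodes the smooth muscle alpha-actin of contractile cells and myofibroblasts. Its brightest probe had raw signals of 635 and 562 on the LPS arrays, 1440 and 1402 on the ROS arrays, and 873 and 783 on the unstimulated arrays. The ROS arrays were the highest, and the LPS arrays the lowest before normalisation. The log2 difference of that probe was 1.16 ± 0.12 in ROS against unstimulated cells and -0.91 ± 0.12 in LPS against ROS cells. In LPS against unstimulated cells it was 0.25 ± 0.12, and it turned to -0.31 under median scaling and -0.55 with no scaling, where the median of all genes lay at -0.52 and -0.75 instead of -0.05. Relative to that median the probe was higher in LPS cells under each of the 3 scalings.

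The 4 Acta2 probes did not give the same size or direction. In ROS against unstimulated cells they ranged from 0.16 to 1.16, with the second brightest probe at 1.01 ± 0.13. In LPS against unstimulated cells they ranged from -0.28 to 0.59, and in LPS against ROS cells from -0.91 to 0.43. The probe at 0.43 (raw signals of 189 and 212 on the LPS arrays, 218 and 218 on the ROS arrays) gave -0.11 under median scaling and -0.25 with no scaling, where the median of all genes was -0.45 and -0.59, so it stayed above that median. On the normalised scale its ROS arrays lay below both LPS arrays and overlapped the unstimulated ones, whereas in raw signal they lay above both LPS arrays. The probe at -0.28 was not above background on either LPS array. Actin genes are near-identical over much of their coding sequence. Which actins each probe can bind was not tested.

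Saa3 had the widest range of the measured members. Raw signals were 6331 and 6650 on the LPS arrays, 331 and 300.5 on the ROS arrays, and 204 and 182 on the unstimulated arrays, the last just above the detection limits of 181 and 179. The groups were well apart, in the order LPS, ROS, unstimulated. The log2 difference was 7.28 ± 0.17 between LPS and unstimulated cells, or 156-fold, and 5 genes were higher by more. It was 5.48 ± 0.17 between LPS and ROS cells and 1.81 ± 0.17 between ROS and unstimulated cells, or 3.49-fold. On the authors' normalised values, which keep the background, these differences were 5.39, 4.63 and 0.76.

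**Figure D2:**
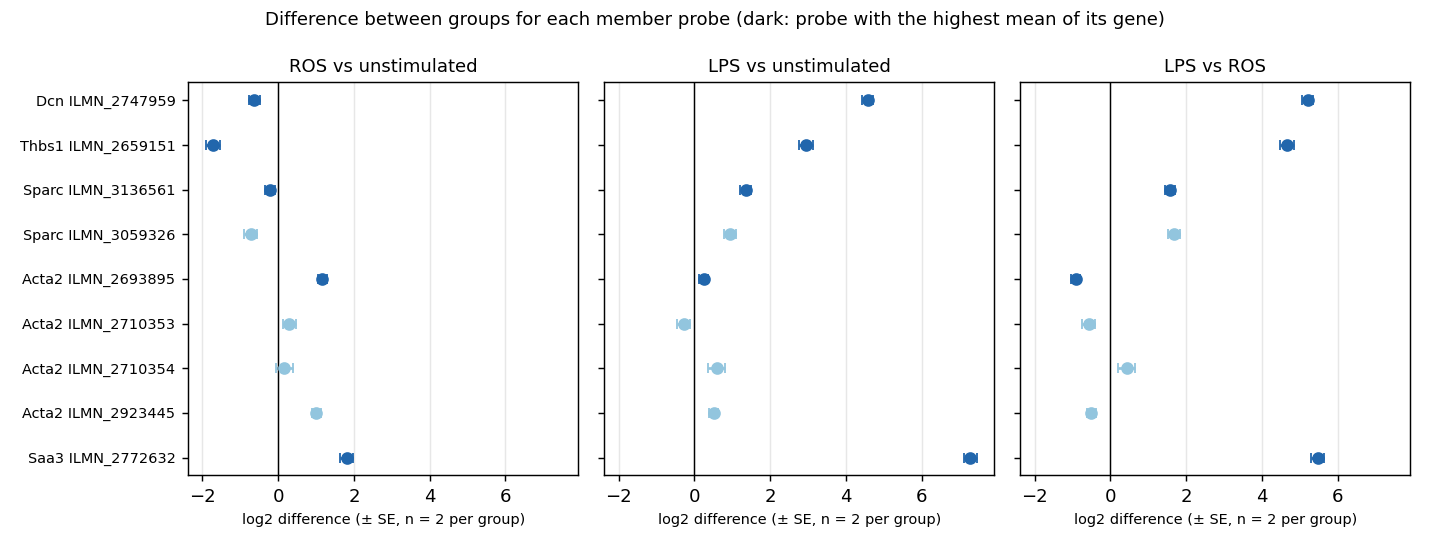
Log2 difference (x axis, with the standard error of the fit, n = 2 arrays per group) of each of the 9 member probes (y axis) in each comparison; dark points mark the probe with the highest mean of its gene. Dcn, Thbs1 and Saa3 differ most, by 2.95 to 7.28 in LPS against unstimulated cells, while the 4 Acta2 probes spread from 0.16 to 1.16 in ROS against unstimulated cells.

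Promoter sequence is shown for the member with the widest range and for the one whose ROS arrays were highest. The RefSeq promoter table (GRCm38.p6) held 5 of the 8 genes, and for each the 250 bases before the start were read and 6 motifs were searched on both strands. These were the TATA box (TATAAA), a loose form of the C/EBP site, TTNNGNAA, the AP-1 site TGANTCA, the GC box GGGCGG, and the NF-kappaB site and CArG box. C/EBP and NF-kappaB factors are known regulators of serum amyloid A genes, and CArG boxes bind serum response factor at actin genes. Capitals mark motif matches in the Saa3 window (chr7:46715677-46715926, minus strand) and the Acta2 window (chr19:34255374-34255623, minus strand), each 5′ to 3′.
Saa3: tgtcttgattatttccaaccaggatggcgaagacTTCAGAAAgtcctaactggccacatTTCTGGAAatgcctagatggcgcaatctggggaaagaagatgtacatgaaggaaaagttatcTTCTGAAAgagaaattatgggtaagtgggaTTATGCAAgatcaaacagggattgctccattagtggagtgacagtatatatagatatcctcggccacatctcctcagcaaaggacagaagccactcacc
Acta2: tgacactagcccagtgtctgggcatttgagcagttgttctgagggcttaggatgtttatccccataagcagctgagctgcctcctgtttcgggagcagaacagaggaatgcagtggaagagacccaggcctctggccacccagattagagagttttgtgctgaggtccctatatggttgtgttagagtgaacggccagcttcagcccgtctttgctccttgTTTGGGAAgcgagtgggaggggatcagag
The Saa3 window held 4 matches to TTNNGNAA and none to the other motifs. Of 32817 promoter windows of this length, 36.8% held at least 1 such match and 0.591% held 4 or more. The Acta2 window held 1 match to TTNNGNAA. The NF-kappaB letters GGGRNNYYCC and the CArG letters CCWWWWWWGG, present in 7.25% and 1.47% of windows, were in neither in these exact forms. R is A or G, Y is C or T, W is A or T and N is any base. Near matches, such as ccctatatgg in the Acta2 window, were not searched for, so their absence is not shown. A match is a description of these letters and not of binding.

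The genes most like each member were those with the smallest root mean square difference between profiles centred on their own mean over the 6 arrays. For Saa3 these were the interferon-induced genes Ifit2 (0.255 on the log2 scale), Rsad2 (0.277) and Oasl1 (0.431). For Thbs1 they were the inflammatory cytokine Il1b (0.165), the chemokine-binding receptor gene Ccrl2 (0.230) and the respiratory chain subunit Cox6a2 (0.308). For Dcn they were the prostaglandin E synthase Ptges (0.187), the metalloproteinase inhibitor Timp1 (0.230) and the vanin gene Vnn3 (0.239). Some of these likenesses include arrays at the floor. Ptges and Vnn3 were not above background on either ROS array, and Vnn3 was not on the first unstimulated array. Oasl1 was not above background on either unstimulated array. Dcn had 3 genes within 0.25, Thbs1 2 and Saa3 0, whereas Acta2 had 284 and Sparc 171, so many genes were about as near to Acta2 and Sparc as those named. The nearest to Sparc included the fibrillar collagen chain Col5a1 (0.0734), after the histone gene H2ac18 (0.0590) and before Azi2 (0.0900), and the nearest to Acta2 were Zeb1, Polr1e and Xlr4a (0.0587 to 0.0594).

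In 7 lists of matrix, stromal, TGF-beta pathway and acute phase genes outside the 8 members, more fell than rose after ROS. Both directions were common after LPS. The 7 lists held 162 names, of which 85 were measured. They were chosen with earlier results of these data known, so the counts and p-values of their genes describe these arrays and are not a test of the lists. In ROS against unstimulated cells 11 of the 85 rose and 41 fell, or 12.9% and 48.2%, beside 22.0% and 18.1% of all 7897 genes. In LPS against unstimulated cells 35 rose and 22 fell (41.2% and 25.9%, beside 24.9% and 29.0% of all genes). In LPS against ROS cells 47 were higher and 11 lower (55.3% and 12.9%, beside 25.0% and 31.0%). Their median log2 differences were -0.49, 0.21 and 0.94 in these 3 comparisons, beside 0.06, -0.05 and -0.08 for all genes. The ROS and LPS comparisons share the unstimulated arrays. With no scaling the LPS against unstimulated split of the lists was 23 up and 38 down, that of all genes 614 up and 5185 down, where 1963 rose and 2292 fell with quantile normalisation.

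**Figure D3:**
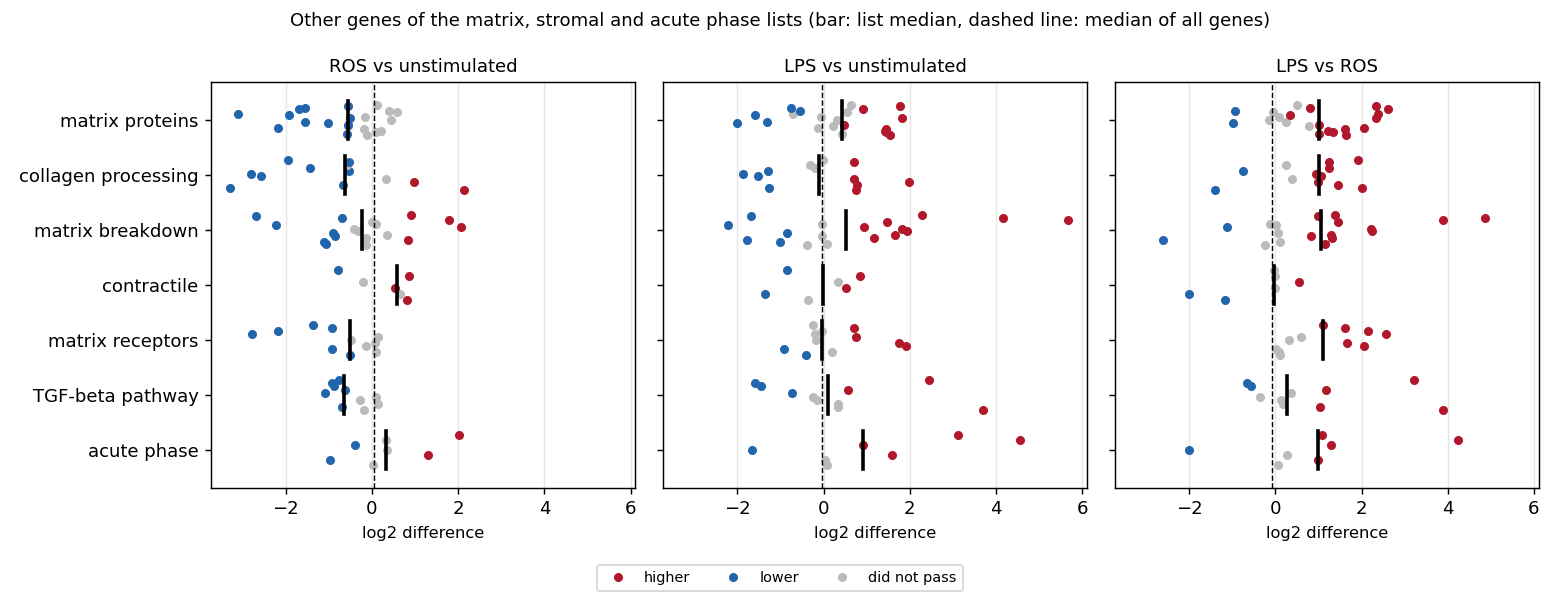
Log2 difference (x axis) of each measured gene of the 7 lists (y axis) in each comparison, coloured by whether it passed as higher, passed as lower or did not pass; black bars are list medians and the dashed line is the median of all genes. Matrix proteins have a median of -0.55 in ROS against unstimulated cells and 1.02 in LPS against ROS cells.

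Among 21 measured matrix proteins, 0 rose and 11 fell after ROS, while 8 rose and 5 fell after LPS. Mgp, a calcification inhibitor bound to matrix, had a log2 difference of -3.10 ± 0.25 in ROS against unstimulated cells (limma adjusted p = 0.000397). Only 1 of the 2 ROS arrays was above background for it, and the bound was at least 8.29-fold lower in ROS cells. Ltbp3, which binds latent TGF-beta, differed by -1.91 ± 0.12 in ROS and -1.58 ± 0.12 in LPS against unstimulated cells (adjusted p = 0.000162 and 0.000129). Srgn, the proteoglycan of secretory granules in blood cells, differed by -1.69 ± 0.15 on the log2 scale in ROS and by 0.93 ± 0.15 in LPS against unstimulated cells (adjusted p = 0.000583 and 0.0033). The laminin chain Lamc1 and the matricellular gene Tnc, tenascin C, rose after LPS by 1.81 ± 0.14 and 1.78 ± 0.12 (adjusted p = 0.000182 and 9.54e-05). Emilin1, an elastic fibre protein, was not above background on either LPS array and was at least 3.42-fold lower than in unstimulated cells (adjusted p = 0.000504).

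The other collagen chains differed in brightness, from Col5a1 with raw signals of 469 and 437 on the LPS arrays, 290.2 and 314 on the ROS arrays, and 379 and 342 on the unstimulated arrays, to chains near background. Col1a1, the partner of the unmeasured Col1a2 in type I collagen, had raw signals of 176 and 169 on the LPS arrays, 156 and 157 on the ROS arrays, and 180 and 198 on the unstimulated arrays. It was not above background on either ROS array or on 1 of the 2 unstimulated arrays. Its log2 difference was 0.44 ± 0.17 in LPS and -0.58 ± 0.17 in ROS against unstimulated cells (limma adjusted p = 0.0683 and 0.0345). The second call was lost under 8 of 13 alternatives, including with no background correction, with the replicate block and without either ROS array (adjusted p from 0.00975 to 0.156 over the alternatives).
The basement membrane chains Col4a1 and Col4a2 and the fibril chain Col5a1 rose after LPS by 1.44 ± 0.12, 1.43 ± 0.26 and 1.44 ± 0.13 (adjusted p = 0.000191, 0.00481 and 0.000269). For Col4a2 the bound was at least 2.46-fold, as 1 of the 2 unstimulated arrays was not above background. Col6a1, of the microfibrillar type VI collagen, differed instead in ROS cells, by -2.19 ± 0.22 (adjusted p = 0.000808), and by -0.13 ± 0.22 in LPS cells (adjusted p = 0.646). Col6a2 did not pass in any comparison.

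Enzymes that process collagen fell after ROS in 8 of 12 cases and rose in 2. The prolyl hydroxylase subunits P4ha1 and P4ha2, needed for a stable collagen helix, differed by -2.58 ± 0.21 and -2.81 ± 0.26 in ROS and by -1.53 ± 0.21 and -1.86 ± 0.26 in LPS against unstimulated cells (limma adjusted p = 0.000415, 0.000632, 0.00169 and 0.0017). Ctsk, cathepsin K, a protease that cuts collagen, differed by -1.26 ± 0.20 in LPS and -3.28 ± 0.20 in ROS cells (adjusted p = 0.00266 and 0.000159). Bmp1, which trims procollagen, rose by 0.75 ± 0.14 after LPS and 2.14 ± 0.14 after ROS (adjusted p = 0.00532 and 0.0002), the LPS call being lost under median scaling and no scaling. After LPS 5 of the 12 rose and 4 fell, with the crosslinking enzyme Loxl1 at least 3.79-fold higher (adjusted p = 0.000116).

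In the matrix breakdown list 9 of 18 genes rose after LPS and 5 fell, and after ROS 4 rose and 7 fell. Timp1, a secreted metalloproteinase inhibitor, had raw signals of 25918 and 25162 on the LPS arrays, 1234 and 1249 on the ROS arrays, and 2296 and 2100 on the unstimulated arrays. The LPS arrays stood far above the rest, and the log2 difference was 4.15 ± 0.11 in LPS and -0.70 ± 0.11 in ROS against unstimulated cells (limma adjusted p = 4.42e-06 and 0.00412). Serpinb2, an inhibitor of plasminogen activators, rose by 5.67 ± 0.13 after LPS and 1.78 ± 0.13 after ROS (adjusted p = 4.18e-06 and 0.000246). Timp2 differed by -1.69 ± 0.13 in LPS and -2.68 ± 0.13 in ROS against unstimulated cells (adjusted p = 0.000168 and 0.0001). Mmp9, gelatinase B, fell by about the same amount after both stimuli, at -2.21 ± 0.20 in LPS and -2.22 ± 0.20 in ROS cells (adjusted p = 0.000285 and 0.000564). Mmp2, gelatinase A, rose by 0.95 ± 0.21 after LPS and 2.07 ± 0.21 after ROS (adjusted p = 0.0112 and 0.00095), the LPS call being lost under median scaling, no scaling and without either unstimulated array.

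The contractile list had 6 measured genes, of which 3 rose and 1 fell after ROS. Acta2 was also higher there by its brightest probe, though its dimmest probes did not pass. Tpm1, a tropomyosin, and Actn1, an alpha-actinin, rose by 0.85 ± 0.12 and 0.81 ± 0.12 (limma adjusted p = 0.00338 and 0.00376). The third was the calponin gene Cnn3, not above background on either unstimulated array, at 0.53 ± 0.17 (adjusted p = 0.0462), a call held in 4 of 13 alternatives. Vim, the intermediate filament vimentin, differed by -0.80 ± 0.15 (adjusted p = 0.00789), a call lost without the second unstimulated array. After LPS 2 rose and 2 fell. Vim differed by -0.84 ± 0.15 in LPS against unstimulated cells (adjusted p = 0.00434). Cnn2, another calponin gene, was above background on 1 of 2 LPS arrays and was at least 1.97-fold lower (adjusted p = 0.0113). The rise of Tpm1 (0.85 ± 0.12, adjusted p = 0.00203) was lost under median scaling and no scaling. The other riser, Cnn3 at 0.52 ± 0.17 (adjusted p = 0.0393), kept its call in 1 of 13 alternatives.

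Receptors for matrix fell after ROS in 6 of 11 cases with 0 rises, and rose after LPS in 4 with 2 falls. The heparan sulfate proteoglycans Sdc3 and Sdc1 led the falls in ROS cells. Sdc3 differed by -2.19 ± 0.12 (limma adjusted p = 0.000144), and Sdc1 was at least 6.63-fold lower (adjusted p = 0.000308). Stab1, a scavenger receptor that takes up SPARC, differed by -1.36 ± 0.17 in ROS cells (adjusted p = 0.0021). The integrin chains Itga5 and Itgav, which bind fibronectin and other matrix ligands, rose after LPS by 1.91 ± 0.11 and 1.75 ± 0.19 (adjusted p = 5.75e-05 and 0.000617).

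Of 10 TGF-beta pathway genes 6 fell and 0 rose after ROS, and 3 rose and 3 fell after LPS. The receptor genes Tgfbr1 and Tgfbr2 differed by -1.44 ± 0.12 and -1.60 ± 0.19 in LPS and by -0.89 ± 0.12 and -0.93 ± 0.19 in ROS against unstimulated cells (limma adjusted p = 0.000204, 0.000791, 0.00253 and 0.0101). The ROS call of Tgfbr2 was lost without the second unstimulated or the second ROS array. Inhba, which forms activin A, rose by 3.69 ± 0.24 after LPS, and the repressor Tgif1 by 2.44 ± 0.13 (adjusted p = 7.89e-05 and 3.87e-05).

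Acute phase genes and their regulators, the company of Saa3, rose after LPS in 4 of 7 cases and fell in 1, and after ROS 2 rose and 2 fell. Orm1, an orosomucoid, was at least 23.0-fold higher after LPS (limma adjusted p = 7.29e-06). Ptx3, a pentraxin, was not above background in unstimulated cells and was at least 6.41-fold higher after LPS and 3.03-fold higher after ROS (adjusted p = 1.48e-05 and 0.000177). Fpr2, a formyl peptide receptor that also responds to serum amyloid A, rose after both stimuli, by 1.59 ± 0.15 and 1.31 ± 0.15 (adjusted p = 0.000357 and 0.00141). Cebpb, a C/EBP factor, differed by -0.97 ± 0.14 in ROS cells (adjusted p = 0.00301) and by 0.03 ± 0.14 in LPS cells (adjusted p = 0.889). Haptoglobin, Hp, differed by -1.67 ± 0.14 after LPS (adjusted p = 0.000197). Saa1, Saa2 and Saa4 had no probe in the annotation used here.

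Markers of cell types that could carry these genes were followed beside the members. Of 10 stromal markers other than the members, 5 had a probe (Col1a1, Cxcl12, Pdpn, Vcam1 and Mgp), and all 5 were above background on both LPS arrays, 3 on both ROS arrays and 4 on both unstimulated arrays. Their summed normalised signal was 18608 to 18846 in LPS, 986 to 1196 in ROS and 1348 to 1357 in unstimulated cells. Vcam1 and Pdpn, adhesion and membrane genes that inflammation also raises in other cells, rose after LPS by 5.68 ± 0.15 and 4.22 ± 0.14 (limma adjusted p = 4.43e-06 and 9.05e-06). Vcam1 also rose after ROS, by 0.94 ± 0.15 (adjusted p = 0.00461), where the stromal sum was lower. Pdpn and Vcam1 averaged 13.76 and 12.10 on the log2 scale in LPS cells and so made up most of the sum in LPS cells. Col1a1 and Mgp did not pass there, at 0.44 ± 0.17 and -0.72 ± 0.25 (adjusted p = 0.0683 and 0.0528), and Cxcl12, at 0.58 ± 0.16 (adjusted p = 0.0212), lost its call under median scaling and no scaling, where it stayed above the median of all genes, and without the second unstimulated or either LPS array.

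Platelets and megakaryocytes also carry Thbs1 and Sparc. Their 5 markers with a probe summed to 475 to 492 in LPS, 1490 to 1540 in ROS and 1084 to 1088 in unstimulated cells, and 2 of the 5 were above background on both LPS arrays, with Ppbp, Gp9 and Gp1bb below it. Itga2b fell after LPS by 0.76 ± 0.17 on the log2 scale, whereas Pf4 rose by 0.65 ± 0.20 against unstimulated cells (limma adjusted p = 0.01 and 0.0319). The Pf4 call was held in 8 of 14 alternatives and lost under median scaling, no scaling, no filter, the replicate block, and without the second unstimulated or the first LPS array. That of Itga2b was lost without the second unstimulated array. Macrophage markers summed to 4089 to 4267 in LPS, 1280 to 1390 in ROS and 16269 to 16696 in unstimulated cells, with 6 of 6, 6 of 6 and 5 of 6 above background on both arrays. C1qb, C1qc, Mrc1 and Mertk fell after LPS, whereas Adgre1 rose by 0.80 ± 0.14 (limma adjusted p = 0.00469). Marco, not above background on either unstimulated array, was at least 1.33-fold higher after LPS (adjusted p = 0.0103). The Adgre1 call was lost under median scaling and no scaling, and that of Marco was held in 7 of 13 alternatives. Neutrophil markers summed to 2168 to 2213 in LPS, 35434 to 38198 in ROS and 46663 to 48614 in unstimulated cells. Endothelial markers summed to 1183 to 1279, 960 to 1117 and 4169 to 4201 in the same groups, and the 2 mast cell markers to 80.2 to 111, 2789 to 3231 and 539 to 579. Neutrophil markers did not all follow their sum in ROS against unstimulated cells. Ltf, Ngp and Camp fell and S100a8 and S100a9 did not pass, but Mpo and Elane rose. The log2 differences of Mpo and Elane were 1.17 ± 0.18 and 0.53 ± 0.12 (limma adjusted p = 0.00376 and 0.0169). The Elane call was held in 9 of 14 alternatives. The part of the cell types above in the members' differences was not tested.

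**Figure D4:**
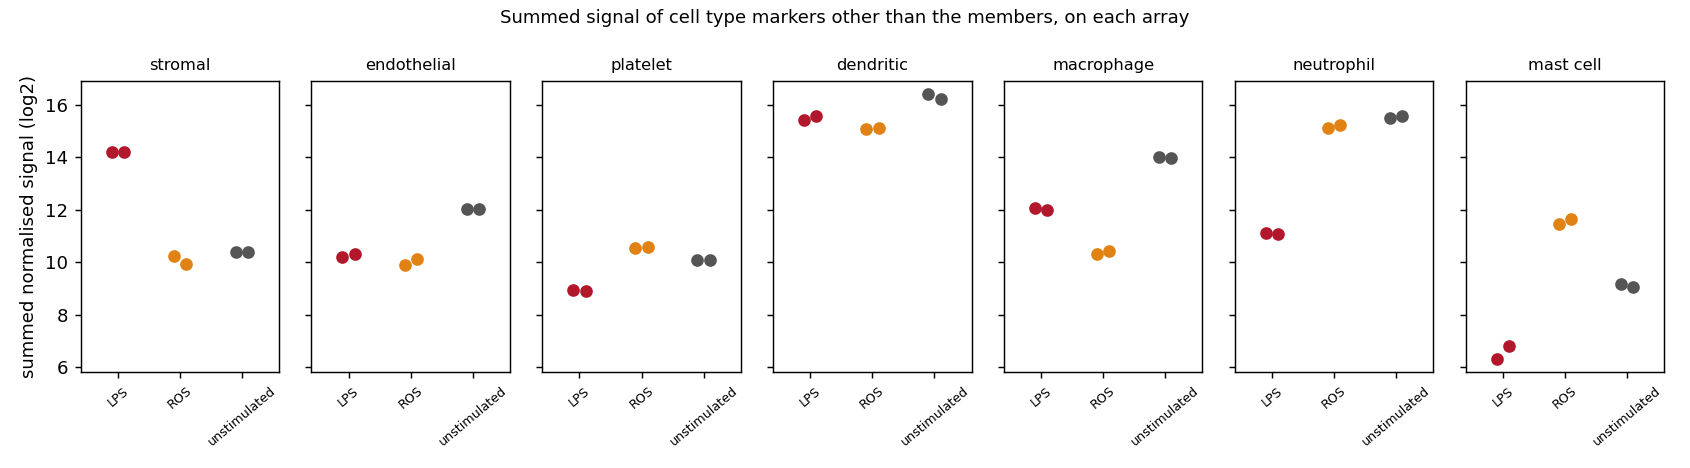
Summed normalised signal on the log2 scale (y axis) of cell type markers other than the members on each array, by group (x axis, 2 arrays each). The stromal sum is highest in LPS cells (18608 to 18846 on the linear scale), where Pdpn and Vcam1 are its brightest genes. The platelet sum is lowest in LPS cells (475 to 492). Pf4, Adgre1 and Marco of these lists run against their sums in LPS against unstimulated cells, as does Mgp, which did not pass. In ROS against unstimulated cells Vcam1, Zbtb46, Ccr7, Mpo and Elane rose while the sums of their lists fell.

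The members' differences were also followed under 14 other settings. Dcn, Thbs1, Saa3 and both Sparc probes kept their direction in all 3 comparisons under each setting that measured them. The direction of the brightest Acta2 probe turned in LPS against unstimulated cells under median scaling and no scaling, and was kept in the other comparisons. For Dcn and Saa3 the differences were smallest where background was not removed. Saa3 ran from 0.74 to 1.95 in ROS against unstimulated cells and from 5.37 to 7.46 in LPS against unstimulated cells.

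**Figure D5:**
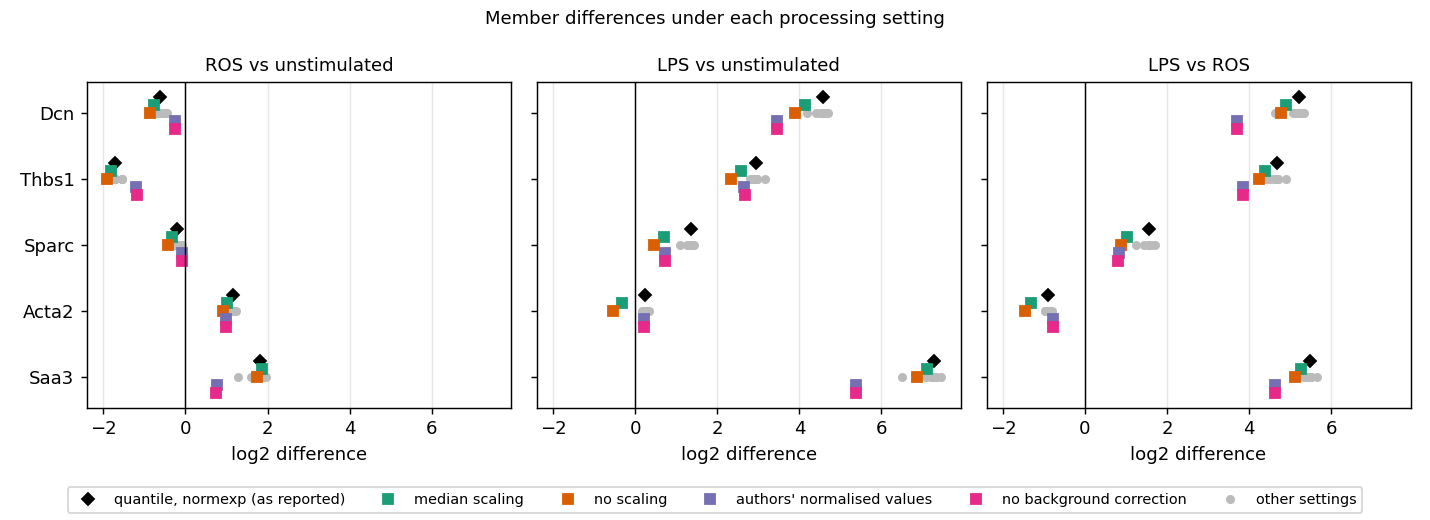
Log2 difference (x axis) of the representing probe of each measured member (y axis) in each comparison under the reported processing (black) and 14 alternatives. Acta2 crosses 0 in LPS against unstimulated cells, at -0.31 and -0.55 under the scalings without quantile normalisation, and Saa3 in ROS against unstimulated cells is lowest, at 0.74, without background correction.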

How the data were processed

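RNA levels were read on Illumina mouse bead arrays with 1 colour. For each of 6 arrays the deposited table holds the linear intensity of 25697 probes. The submitters' processing notes name GenomeStudio 2009.2, and whether it removed background is not stated there. For 5 arrays the deposited table adds a detection p-value for every probe, and none was used for the second LPS array. The authors' deposited log2 table lists 11220 probes, quantile normalised as judged from its columns' equal quartiles, and lists each probe detected at p under 0.05 on at least 3 arrays. From that rule the detection limit of the second LPS array was taken (between 160.52 and 160.57), and its background mean and SD were derived from that limit and the other arrays.

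With limma 3.58.1 in R 4.3.3, background was corrected by normexp (offset 16), log2 was taken and arrays were quantile normalised. Probes detected on both arrays of at least 1 group were kept (11622, of which 10435 had 1 gene symbol in the annotation used here). A gene's value is that of its probe with the highest mean (7897 genes). Groups were fitted together with lmFit and eBayes (3 residual degrees of freedom, no covariates), and Benjamini-Hochberg adjustment ran over the 11622 probes of each comparison; a gene rose or fell at an adjusted p under 0.05. An error on a difference is the SE of that fit. A fold written as "at least" sets the brighter group's mean against the dimmer group's with each undetected array at no less than its lowest detected level. Detection limits and the number of arrays bound the precision. The procedure was tested on simulated data.

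The 8 members and the gene lists were chosen with earlier results of these data known. Genes named from each list were taken from its up to 4 called genes with the largest difference per comparison. Not all of those are given, and some values given are from comparisons where the gene was not among them. The collagen chains are named whether called or not, and for each member the 3 genes most like it. The annotation lists only probes of the authors' table, so a gene without a probe is not analysed here. No column of per-sample values was left out. Background corrections, scalings, filters, the replicate number as a block and each array left out were tried as alternatives.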

Additional observations from a re-analysis of the deposited data

How the results depend on the processing

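The number of genes called in ROS against unstimulated cells was 3164, and 1892 to 3178 with 1 array left out; it was 1892 without the first and 1924 without the second unstimulated array, and 2095 without the first ROS array, fits that rest on fewer arrays. The genes called over the whole array in the other comparisons, and the list genes called in all 3, stayed within 1.5 times their value under all 14 alternatives. Scaling moved the split: with no scaling 1016 genes were higher and 2088 lower in ROS against unstimulated cells (1738 and 1426 as reported) and 926 and 4383 in LPS against ROS cells (1976 and 2447). Median scaling gave 867 and 4182 in LPS against unstimulated cells, 1112 and 3925 in LPS against ROS cells, and 24 and 31 list genes in LPS against unstimulated cells. The second brightest Acta2 probe, at 0.51 in LPS against unstimulated cells, reversed to -0.15 under median scaling and -0.39 with no scaling. With the replicate number as a block the called genes numbered 4089 in LPS and 2855 in ROS cells, each set against unstimulated cells, and 4208 between the stimuli, with 55, 48 and 57 list genes. Nothing in the labels pairs the arrays, and the deviations of same-numbered arrays correlated at -0.11 to 0.02. A chip as a block was not run, since the headers name none. Probes near background, such as those of Sparc and Col1a1 and the dimmer ones of Acta2, are limited by the background estimate, which on the second LPS array is indirect.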
